A study of Mus musculus with 3 samples.

Results

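The genes described here encode the T cell receptor (TCR) complex and fix T cell identity: Cd3d, Cd3e, Cd3g, Cd247, Lat, Lef1, Tcf7, Cd4, Cd8a and Cd8b1. They were chosen by name, with earlier results of these data known. All 10 were found by NCBI gene ID among the 17615 genes listed in any of 3 deposited tables. The tables hold RNA sequencing of splenic macrophages sorted from C57BL/6J mice that were 6 to 8 weeks old at transplantation. Each mouse had received 800000 GFP+BFP+ leukemia cells without irradiation. In the mM-CSF and the sM-CSF condition the named form of M-CSF was at a high level in the leukemia cells. The title of the control sample names acute myeloid leukemia and neither form, so the control recipients also bore the leukemia. M-CSF is the macrophage growth factor encoded by Csf1; the prefixes m and s are not spelled out in the labels. Cells without GR1, with intermediate CD115 and with F4/80 were taken on day 18, from a leukemia that mice survive for 30 to 40 days. Each condition had 1 library. The number of mice behind a library, the way the M-CSF forms were introduced and the number of leukemia clones are not given in the sources used here. No difference below therefore has a replicate check, and none was tested.

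T cells recognise peptides on MHC molecules through an antigen receptor whose variable chains have no signalling tail of their own. Signals pass through the invariant CD3 gamma, delta and epsilon chains and the zeta chain, the product of Cd247, whose tails carry tyrosine motifs that are phosphorylated by the kinase Lck, which the coreceptors CD4 and CD8 bring to the receptor. The kinase ZAP-70 then docks on these motifs and phosphorylates the membrane adaptor LAT, on which downstream enzymes assemble. TCF-1 and LEF1, the products of Tcf7 and Lef1, are DNA-binding factors that set up the T cell programme in the thymus and stay high in naive T cells.

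The level of each gene is given in FPKM, the authors' estimate of fragments scaled to gene length and library size, which allows genes of different length to be set side by side. A difference is that of log2(FPKM + 1). To be called higher or lower, a gene needed a difference of 1 or more either way (2-fold) and 5 FPKM or more in its higher library. Beside the FPKM stands the ratio of the gene's shares of all counts in both libraries, with an exact 95% interval that covers counting error only.

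The libraries held 8.57e+06 (mM-CSF), 8.94e+06 (sM-CSF) and 9.09e+06 (control) estimated counts. The sort genes were present, with Csf1r (CD115) at 222, 149 and 268 FPKM and Adgre1 (F4/80) at 67.5, 65.5 and 101 FPKM in that order. The T cell genes were present in every library too. Lef1 was the lowest of the 10 in each, and the highest was Cd3g at 137 FPKM in the mM-CSF library, against Tcf7 at 107 FPKM in the sM-CSF and at 73.7 FPKM in the control library. The least counted member was Cd3d in the control library, with 225.9 estimated counts. Together the 10 genes took 1083 CPM (counts scaled to library size) in the mM-CSF, 1182 in the sM-CSF and 724 in the control library. In sorted bulk RNA, more T cells and more of these transcripts per cell cannot be told apart.

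**Figure D1:**
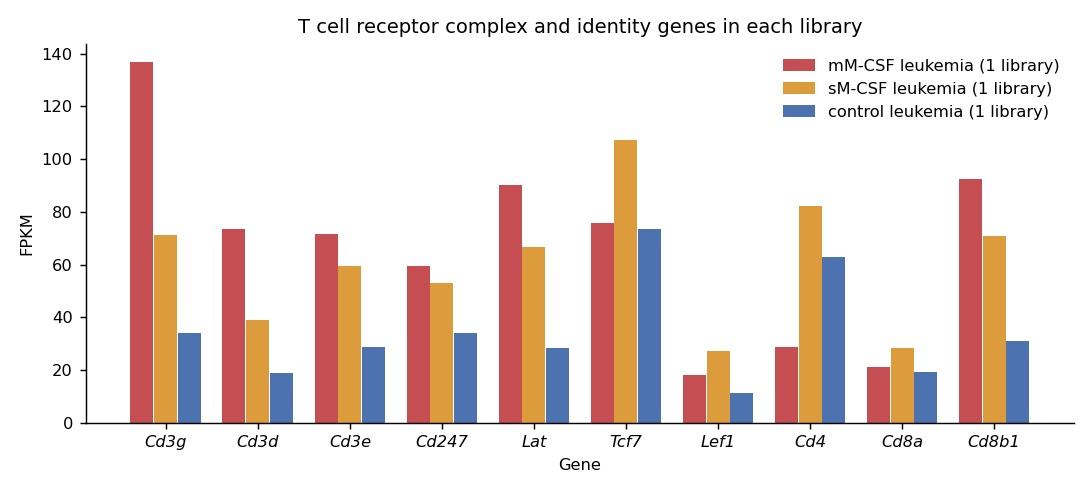
Level of the 10 genes (horizontal axis) in FPKM (vertical axis), 1 bar per library. Cd3g, Cd3d, Lat and Cd8b1 are highest in the mM-CSF library, while Tcf7, Lef1, Cd4 and Cd8a are highest in the sM-CSF library.

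Cd3g, Cd3d and Cd3e are neighbours on chromosome 9. Cd3g and Cd3d are read in opposite directions from starts that lie 1355 bases apart in RefSeq's GRCm38.p6 annotation. Because these 3 genes had close values in the sM-CSF comparison but not in the mM-CSF comparison (below), the 250 bases before each start are shown, from RefSeq (GRCm38.p6), written 5′ to 3′ on the strand of the gene. Capitals mark CTTTGA, which TCF-1 and LEF1 recognise, and AGATAA, which factors such as GATA3 recognise, on either strand.
Cd3g (chr9:44980432-44980681, minus strand): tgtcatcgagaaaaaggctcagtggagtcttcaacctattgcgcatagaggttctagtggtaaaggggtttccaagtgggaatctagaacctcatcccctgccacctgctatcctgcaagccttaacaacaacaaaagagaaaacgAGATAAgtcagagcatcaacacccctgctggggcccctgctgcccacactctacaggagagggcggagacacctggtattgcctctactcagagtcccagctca
Cd3d (chr9:44981536-44981785, plus strand): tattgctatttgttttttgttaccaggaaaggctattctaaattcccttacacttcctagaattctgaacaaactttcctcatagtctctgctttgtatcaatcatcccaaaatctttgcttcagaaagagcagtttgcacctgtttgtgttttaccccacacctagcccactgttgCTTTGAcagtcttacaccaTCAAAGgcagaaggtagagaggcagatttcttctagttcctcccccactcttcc
Cd3e (chr9:45009612-45009861, minus strand): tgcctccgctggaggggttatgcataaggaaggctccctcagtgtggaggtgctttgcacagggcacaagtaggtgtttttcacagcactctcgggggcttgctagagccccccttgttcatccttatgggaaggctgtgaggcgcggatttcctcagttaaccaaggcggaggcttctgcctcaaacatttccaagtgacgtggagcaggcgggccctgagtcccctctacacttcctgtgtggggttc
Cd3d held 2 CTTTGA matches, starting 73 and 54 bases before the start, the second on the opposite strand as TCAAAG. Cd3g held 1 AGATAA match, 104 bases before the start, and Cd3e held neither. The bases after the starts of Cd3g and Cd3d were found near the beginning of transcripts in GENCODE, another annotation. Those of Cd3e were not, so its window is less certain. Over 32851 promoter entries of the same table and window, 13.8% held CTTTGA and 9.99% held AGATAA. The ETS motif, searched only as CGGAAG, was in none of these 3 and in 13.6% of all entries. Nor did they hold the RUNX motif, searched only as TGTGGT, which 14.0% of all entries held. Other forms of these motifs were not searched. The TATA box, searched as TATAAA, was in none of the 3 and in 12.4% of all. The E box CANNTG, in 66.2% of all entries, was in each of the 3, overlapping no other match. All were searched on both strands. The table had entries for 8 of the 10 genes, without Cd4 and Cd8b1. A match is only a description of these letters.

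The first comparison sets the mM-CSF library against the control. Of the 10 genes 5 were higher, namely Cd3g, Cd3d, Cd3e, Lat and Cd8b1, and Cd4 was lower. Among 9789 genes with the minimum expression, 8.97% were higher and 15.1% lower by the same rule. The median difference of the 10 genes was 1.03, against -0.05 for all genes tested. The smallest of the 5 higher differences was that of Cd3e and the largest that of Cd3g.

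The CD3 gamma chain gene Cd3g (NCBI gene 12502) stood at 137 FPKM in the mM-CSF library, against 34.2 FPKM in the control. Its share of counts was 4.02-fold higher (95% interval 3.55 to 4.57), on 1184 and 312 estimated counts. The delta chain gene Cd3d (gene 12500), whose product pairs with CD3 epsilon as the gamma chain does, was at 73.5 FPKM against 18.9 FPKM in the control, 3.91-fold higher (3.37 to 4.55). The epsilon chain gene Cd3e (gene 12501), which takes part in both pairs, was at 71.5 FPKM against 28.8 FPKM in the control, 2.49-fold higher (2.21 to 2.82). The interval of Cd3e lies below those of Cd3g and Cd3d. The zeta chain gene Cd247 (gene 12503), on chromosome 1, was at 59.5 FPKM against 34.2 FPKM in the control. That difference of 0.78 was short of 2-fold, with a share ratio of 1.65 (1.48 to 1.84). Zeta also serves receptors of natural killer (NK) cells.

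The adaptor gene Lat (gene 16797), on chromosome 7, stood at 90.2 FPKM in the mM-CSF library, against 28.4 FPKM in the control, a 3.20-fold higher share of counts (2.82 to 3.64). The transcription factor gene Tcf7 (gene 21414) was nearly level, at 75.9 FPKM against 73.7 FPKM in the control, with a share ratio of 1.02 (0.950 to 1.09). Its difference of 0.04 was -0.42 when both libraries were rescaled to TPM. Lef1 (gene 16842) was at 18.2 FPKM against 11.5 FPKM in the control, a difference of 0.62 that was short of 2-fold.

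The coreceptor genes went different ways. Cd4 (gene 12504), the coreceptor for MHC class II, stood at 28.7 FPKM in the mM-CSF library, against 62.8 FPKM in the control, a share 2.17-fold lower (1.997 to 2.37). Cd8a (gene 12525), the alpha chain of the coreceptor for MHC class I, was at 21.1 FPKM against 19.5 FPKM in the control. Its difference was 0.11, and -0.34 on the TPM scale. Cd8b1 (gene 12526), the beta chain that pairs with CD8 alpha on T cells, was at 92.3 FPKM against 31.2 FPKM in the control, 2.98-fold higher (2.66 to 3.35). On the log2 scale the beta chain gene thus stood 1.54 above the control and the alpha chain gene 0.11.

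The order of these differences ran with gene length. Across the 10 genes, Spearman's rho between length and difference was -0.95, as a description over genes that share both libraries; it was -0.69 across 9213 genes averaging 5 FPKM or more. Cd3g, the shortest member at 1023 bases, had the largest difference, and Cd4 at 3095 bases the lowest. Genes of the length of Cd3g had a median difference of 0.81 and genes of the length of Cd4 one of -0.17, read from the medians of 20 length bins. With this trend subtracted, Cd3g (1.16), Cd3d (1.32), Lat (1.01) and Cd8b1 (1.00) remained past 2-fold, in a background of 2.93% of genes higher. Of these, Cd3d alone passed by more than its counting interval. Cd3e (0.76) did not, nor did Cd4 (-0.94), in a background of 7.92% lower. The members' median was then 0.69, and 9 of the 10 values were above 0, as before. The remaining differences still ran with length across the 10 genes, with a rho of -0.92. What sets the length trend was not tested.

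**Figure D2:**
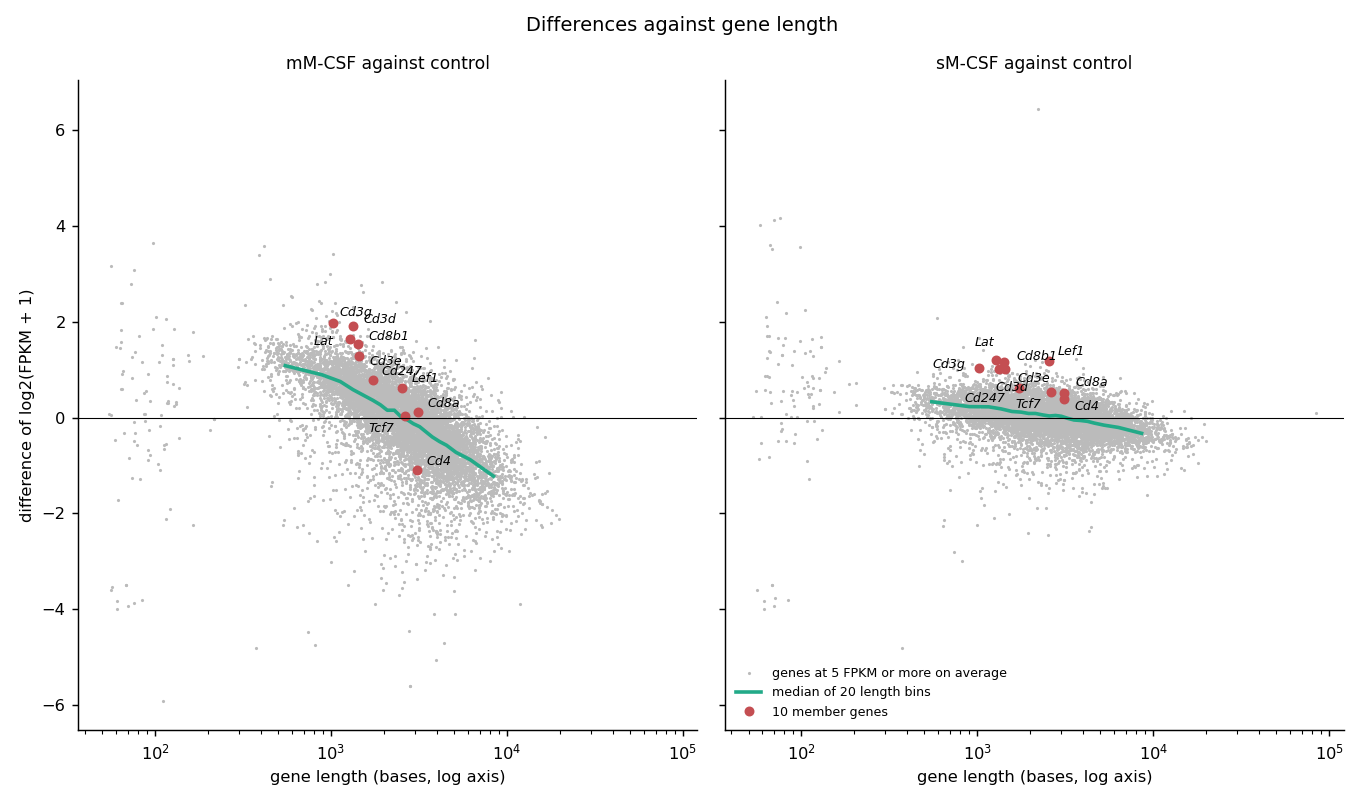
Difference of log2(FPKM + 1) from the control (vertical axis) against gene length in bases (horizontal log axis), for the mM-CSF library on the left and the sM-CSF library on the right. Grey points are genes at 5 FPKM or more on average, the line is the median of 20 length bins, and red points are the 10 genes. On the left the line slopes down and only Cd4 lies well below it; on the right the line is flatter and all 10 lie above it.

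The second comparison sets the sM-CSF library against the control. All 10 genes were above their control values, and 6 passed the size rule: Cd3g, Cd3d, Cd3e, Lat, Lef1 and Cd8b1. None was lower. Over 9683 genes 0.785% were higher and 1.63% lower. The median of the 10 was 1.01, against 0.02 for all genes tested.

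The 3 neighbouring CD3 genes stood at nearly the same ratio, just inside the size rule. Cd3g was at 71.3 FPKM in the sM-CSF library, against 34.2 FPKM in the control, with a share ratio of 2.09 (1.82 to 2.40). Cd3d was at 39.1 FPKM against 18.9 FPKM in the control, with a ratio of 2.07 (1.76 to 2.44). Cd3e was at 59.5 FPKM against 28.8 FPKM in the control, with a ratio of 2.06 (1.82 to 2.34). These intervals overlap almost entirely, and the differences of 1.04, 1.01 and 1.02 fell just short of 1 (0.99, 0.97 and 0.97) with median-of-ratios scaling. Cd247 was at 53.1 FPKM against 34.2 FPKM in the control, a difference of 0.62.

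Lat was at 66.6 FPKM in the sM-CSF library, against 28.4 FPKM in the control, a difference of 1.20 (share ratio 2.35, 2.06 to 2.69). Lef1 was at 27.4 FPKM against 11.5 FPKM in the control, a difference of 1.19 (share ratio 2.26, 1.96 to 2.61). These were the 2 largest differences in FPKM as deposited, and their order turned with a pseudocount of 0.1 (1.23 for Lat and 1.25 for Lef1), while on the TPM scale both were 1.08. Tcf7 was at 107 FPKM against 73.7 FPKM in the control, with a ratio of 1.45 (1.36 to 1.54). Cd8b1 was at 70.9 FPKM against 31.2 FPKM in the control, with a ratio of 2.28 (2.02 to 2.57). Cd8a, at 28.3 FPKM against 19.5 FPKM in the control, had a ratio of 1.46 (1.31 to 1.63). Cd4, at 82.4 FPKM against 62.8 FPKM in the control, had a ratio of 1.31 (1.23 to 1.40), the smallest of the 10.

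The length trend was weaker here, with a rho of -0.45 across 9372 genes and -0.71 across the 10. With it removed, Lat (1.00) and Lef1 (1.15) remained past 2-fold, both by less than their counting intervals, in a background of 0.485% higher, and the other 8 lay between 0.37 and 0.99. All 10 stayed above 0, with a median of 0.81 and a rho with length of -0.50. The mM-CSF and sM-CSF comparisons share the control library, so their values are not independent.

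**Figure D3:**
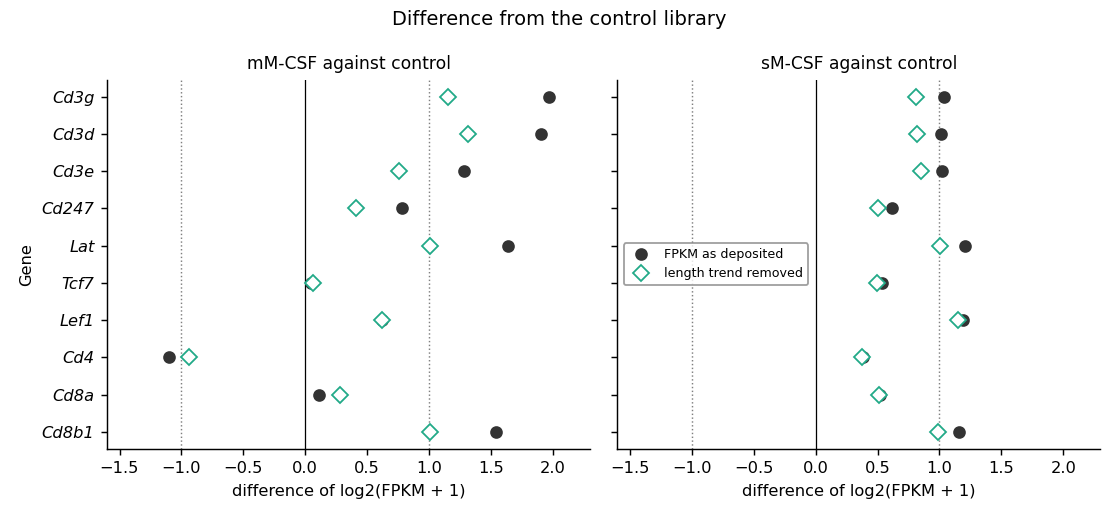
Difference of log2(FPKM + 1) from the control library (horizontal axis) for each gene (vertical axis), mM-CSF on the left and sM-CSF on the right. Filled points are FPKM as deposited and open diamonds the same with the length trend removed; dotted lines mark 2-fold. Cd4 is the only gene left of 0, in the mM-CSF panel.

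The third comparison sets the mM-CSF library against the sM-CSF library. Cd4 was the 1 member past the size rule, at 28.7 FPKM in the mM-CSF library against 82.4 FPKM in the sM-CSF library. Its share was 2.86-fold lower (2.63 to 3.10), a difference of -1.49 that was -1.31 with the length trend removed and -1.82 on the TPM scale. Over 9574 genes 3.79% were higher and 8.73% lower, or 1.91% and 4.75% with the length trend removed. Cd3g and Cd3d, at 0.93 and 0.90, were short of the rule but passed it with median-of-ratios scaling (1.07 and 1.03) and with upper-quartile scaling (1.04 and 1.00). Tcf7 (-0.49), Lef1 (-0.57) and Cd8a (-0.41) were below the sM-CSF library under every setting. Cd8b1 (0.38) was above it under every setting, by as little as 0.01 with the length trend removed. Lat (0.43), Cd3e (0.26) and Cd247 (0.16) were above it as deposited. With the length trend removed all 3 were slightly below (-0.02, -0.09 and -0.09), and on the TPM scale Cd3e and Cd247 were (-0.05 and -0.15).

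Ratios between genes within 1 library do not depend on how libraries are scaled. Cd4 to Cd8a was 1.36 in the mM-CSF library (95% interval 1.22 to 1.52), 2.91 in the sM-CSF library (2.69 to 3.16) and 3.23 in the control (2.93 to 3.56). These genes have close lengths, 3095 and about 3122 bases, so the length trend touches the ratio little. The mM-CSF value lies below the intervals of the others, which overlap each other. Cd4 to Cd3e was 0.402 in the mM-CSF library (0.364 to 0.443), 1.39 in the sM-CSF library (1.28 to 1.51) and 2.18 in the control (1.95 to 2.44). Per Cd3e transcript, Cd4 was thus lowest in the mM-CSF library. Cd3e is shorter, at 1436 bases, so the length trend touches this ratio. In the mM-CSF comparison genes of the length of Cd4 had a median difference of -0.17 and those of the length of Cd3e 0.52. The part of the trend in the ratio was not tested.

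The chains of CD8 were in different proportion in each library. Cd8b1 to Cd8a was 4.38 in the mM-CSF library (3.96 to 4.86), 2.50 in the sM-CSF library (2.27 to 2.76) and 1.60 in the control (1.40 to 1.83). Cd8a per Cd3e was 0.295 in the mM-CSF library (0.265 to 0.328), 0.476 in the sM-CSF library (0.430 to 0.526) and 0.674 in the control (0.590 to 0.771). Cd8b1 per Cd3e, genes of 1416 and 1436 bases, was 1.29 in the mM-CSF library (1.18 to 1.41), 1.19 in the sM-CSF library (1.08 to 1.31) and 1.08 in the control (0.935 to 1.25). Those 3 intervals overlap. Pairs of unlike length, such as Cd8b1 with Cd8a and Cd8a with Cd3e, are touched by the length trend, and its part in these ratios was not tested.

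Within the CD3 group, Cd3g to Cd3d was alike everywhere, at 1.86 in the mM-CSF library (1.70 to 2.04), 1.83 in the sM-CSF library (1.62 to 2.06) and 1.81 in the control (1.52 to 2.16). Relative to Cd3e, both stood higher in the mM-CSF library than in the other libraries. Cd3d to Cd3e, genes of 1330 and 1436 bases, was 1.03 in the mM-CSF library (0.935 to 1.13), 0.657 in the sM-CSF library (0.584 to 0.739) and 0.655 in the control (0.553 to 0.775). Cd3g to Cd3e was 1.92 in the mM-CSF library (1.75 to 2.09), 1.20 in the sM-CSF library (1.08 to 1.33) and 1.19 in the control (1.02 to 1.38). Cd3g has 1023 bases, and the part of the length trend in its ratio to Cd3e was not tested. Tcf7 to Lef1 was 4.18 in the mM-CSF library (3.74 to 4.68), 3.92 in the sM-CSF library (3.59 to 4.28) and 6.43 in the control (5.67 to 7.32), so that the control had the least Lef1 per Tcf7.

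**Figure D4:**
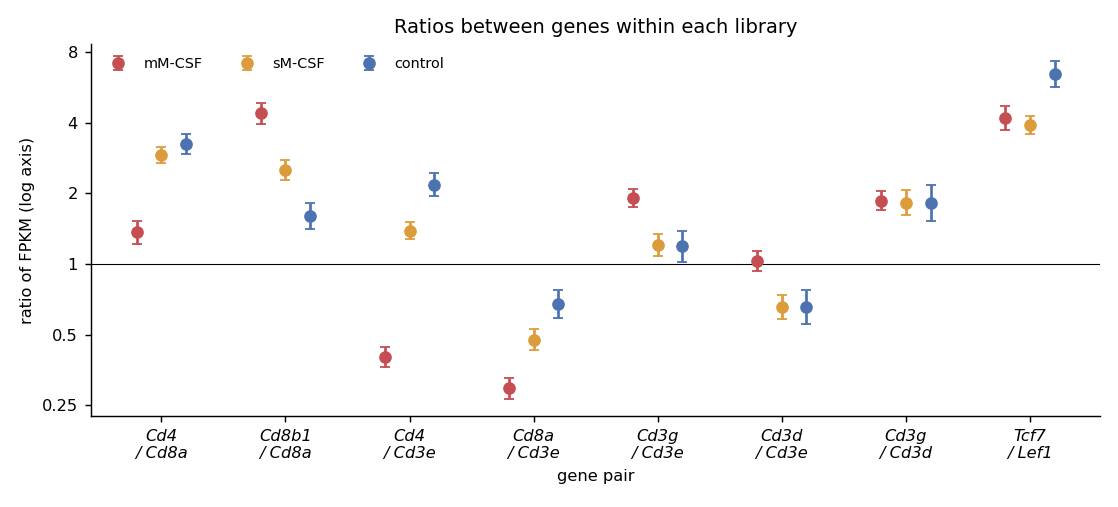
Ratio of FPKM between pairs of genes (horizontal axis) within each library, on a log axis (vertical), with exact 95% intervals for counting error. Cd4 to Cd8a is lowest and Cd8b1 to Cd8a highest in the mM-CSF library, while Cd3g to Cd3d is level at 1.81 to 1.86.

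The tables also give a gene length per library, which for genes with several transcripts is not fixed. Lef1, listed with several transcripts, had a length of 2410.0 bases in the mM-CSF, 2529.8 in the sM-CSF and 2682 in the control library. Cd247 had 1679, 1711 and 1776 bases and Tcf7 2604, 2637 and 2659 bases in the same order. All 3 genes were thus shortest in the mM-CSF and longest in the control library, so their FPKM ratios exceed their share ratios. The lengths of Cd3g, Cd3d, Cd3e, Lat, Cd4 and Cd8b1 were the same in every library. Estimated counts of Cd3d and Cd8b1 were not whole in any library, as happens when a read is split among several genes, and their values are less certain for it.

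The other genes of T cells were described through 3 lists. Their counts, and those of the later lists, stand beside the shares over all genes tested. In the mM-CSF comparison 8.97% of these were higher and 15.1% lower, or 2.93% and 7.92% with the length trend removed. In the sM-CSF comparison 0.785% were higher and 1.63% lower, or 0.485% and 1.81% with the trend removed. Of 19 genes of TCR-proximal signalling, 4 were higher and 3 lower in the mM-CSF library than in the control, with a median of -0.19 against -0.05 for all genes tested. Lck, the kinase that starts TCR signalling, was at 120.0 FPKM against 51.9 FPKM in the control. Zap70 was at 47.7 FPKM against 18.4 FPKM in the control, and the adaptor gene Skap1 at 30.6 FPKM against 13.1 FPKM. Fyb, which encodes an adaptor shared by T cells and myeloid cells, was lower, at 40.1 FPKM against 122 FPKM in the control. Fyn, a kinase related to Lck, differed by -0.52. The other called genes, named after their values were seen, were Sit1 (higher) and Rasgrp1 and Plcg1 (lower). The higher genes were 1201 to 2154 bases long and the lower ones 4435 to 5155, and with the length trend removed 3 were higher (Lck at 1.04, Zap70 at 1.17 and Skap1 at 1.01), none was lower and the median was 0.20. In the sM-CSF comparison 1 of the 19 was higher, Sit1 at 1.01, and none lower, with a median of 0.24 against 0.02; with the trend removed none was called.

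Of 18 surface and homing receptor genes, the adhesion receptor gene Cd2 alone was past the size rule in the mM-CSF comparison, at 243 FPKM against 76.7 FPKM in the control (1.65, and 0.91 with the length trend removed). The median was 0.03. Cd96 (0.90) and the activation marker gene Cd69 (0.71) were short of the rule, as was Il2ra, an IL-2 receptor chain gene, at -0.78. Cd5, a dampener of TCR signals, was at 23.8 FPKM in the mM-CSF, 29.0 in the sM-CSF and 17.3 in the control library. None of the 18 passed in the sM-CSF comparison, where the median was 0.43.

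Of 15 T cell transcription factor genes, Ikzf3, a gene that B cells also express, was the 1 called in the mM-CSF comparison, lower at 33.3 FPKM against 77.6 FPKM in the control (-1.20, and -0.71 with the length trend removed). Their median was -0.08. Bcl11b, needed for T cell commitment, was at 5.03 FPKM in the mM-CSF, 6.26 in the sM-CSF and 4.10 in the control library, and Gata3 at 5.88, 5.83 and 3.86 FPKM in that order. With the length trend removed the median was 0.23, Ikzf3 was no longer called and Bcl11b, at about 7718 bases, became the 1 called, higher at 1.37. Id3 (0.91), Zbtb7b (-0.73) and Runx3 (-0.71) were short of 2-fold. In the sM-CSF comparison none was called and the median was 0.12. Genes of the TCR constant regions were not analysed here.

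Markers of other cells that can carry these transcripts moved too. Some splenic dendritic cells of the mouse express CD4 and others CD8 alpha without CD8 beta. Of 7 genes of cDC1, the CD8 alpha-bearing kind, 4 were lower in the mM-CSF library than in the control. The 7 summed to 74.6 FPKM against 163 FPKM in the control. Wdfy4 was the largest in both sums, at 23.9 FPKM against 90.1 FPKM (-1.87, and -0.65 with the length trend removed). Clec9a, a receptor for dead cells, was at 2.12 FPKM against 10.9 FPKM in the control. Cadm1, named after its values were seen, alone went the other way, at 19.7 FPKM against 15.7 FPKM in the control. Of 6 genes of cDC2, some of which bear CD4, 3 were lower and the sums were 63.8 FPKM against 142 FPKM. Dtx1, which was not called, was the largest in both sums, at 43.1 FPKM against 69.3 FPKM in the control. Mgl2, named after its values were seen, alone went the other way, at 5.40 FPKM against 4.26 FPKM in the control. Clec4a4, a lectin gene of splenic cDC2, was at 5.27 FPKM against 31.7 FPKM in the control, and Esam at 2.38 FPKM against 7.66 FPKM. With the length trend removed 3 genes of each list were lower. For cDC2 they were the same 3, and the list median went from -1.02 to -1.11. For cDC1 Clec9a (-1.71) and Tlr3 (-1.21) stayed, while Xcr1 (-0.73) and Wdfy4 did not. The third was Batf3, named after its values were seen, at -1.19 in place of -0.21. The cDC1 median went from -1.29 to -0.73. In the sM-CSF library no gene of either list was called, and the sums were 141 FPKM (cDC1) and 178 FPKM (cDC2). No marker of these 2 lists was at 0. Cd4 was lower in the same library as the cDC2 genes, and the part of dendritic cells in the result was not tested.

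NK cells share Cd247 and Lat with T cells. Of 12 NK genes 3 were higher in the mM-CSF library and none lower, beside 8.97% higher and 15.1% lower over all genes tested. The summed level was 1475 FPKM against 1017 FPKM in the control. It was 1038 FPKM in the sM-CSF library, with no gene called. Ccl5, named after its values were seen, was the largest in each sum. It was at 819 FPKM in the mM-CSF, 593 in the sM-CSF and 649 in the control library. With the length trend removed none of the 12 was called in the mM-CSF comparison, and the median was 0.06 in place of 0.39. The higher genes as deposited were Nkg7 (239.6 FPKM against 76.8 FPKM in the control), Klra8 (38.3 against 15.8) and Klra4 (22.04 against 10.33). The receptor gene Klrb1c, which was not called, was at 29.1 FPKM against 16.6 FPKM in the control. The activating receptor gene Ncr1 went the other way, at 19.7 FPKM in the mM-CSF, 24.9 in the sM-CSF and 22.9 in the control library. So did Gzmb (-0.18) and Prf1 (-0.42) in the mM-CSF comparison, both named after their values were seen. B cell genes were abundant, summing to 2884 FPKM over 11 genes in the mM-CSF, 2773 in the sM-CSF and 1511 in the control library. Of the 11, 3 were higher and 1 lower in the mM-CSF comparison, and 3 higher and none lower in the sM-CSF comparison. With the length trend removed none of the 11 was called in either comparison, and the medians were 0.31 and 0.73. Of 11 macrophage genes 4 were higher and 1 lower in the mM-CSF library and none was called in the sM-CSF library. Their sums were 4507 FPKM in the mM-CSF, 1899 in the sM-CSF and 1863 in the control library. The higher genes were C1qa (1129 FPKM against 254 FPKM in the control), C1qb (1231 against 271), C1qc (1085 against 312) and Fcgr1 (26.4 against 9.71). The lower gene was Mertk, named after its values were seen (17.75 against 42.15). With the length trend removed the same 4 were higher and none was lower in the mM-CSF library. The lymphocyte and macrophage markers were all above 0, and their part in the values of the 10 genes was not tested.

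**Figure D5:**
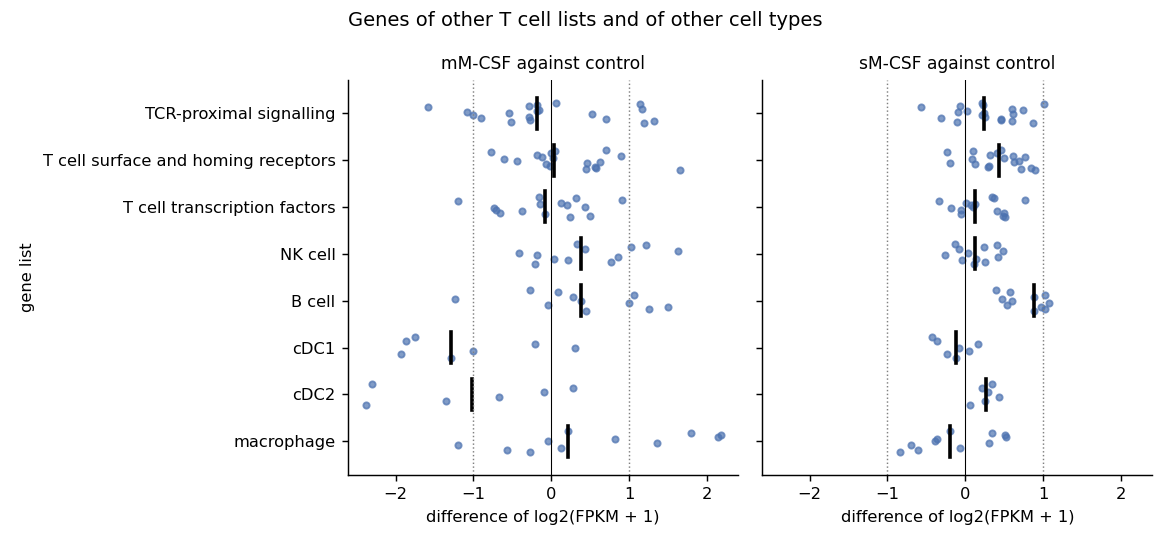
Difference of log2(FPKM + 1) from the control (horizontal axis) for genes at 1 FPKM or more in either library, by list (vertical axis), mM-CSF on the left and sM-CSF on the right. Each point is a gene, black bars are medians and dotted lines mark 2-fold. The cDC1 and cDC2 medians are -1.29 and -1.02 on the left and -0.12 and 0.27 on the right, and the B cell median is 0.38 on the left and 0.89 on the right.

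The genes with values most like the CD3 chains were sought among 5788 genes at 10 FPKM or more in every library, by the distance of their differences from the mean of Cd3d, Cd3e and Cd3g (1.72 for mM-CSF against control, 1.02 for sM-CSF against control). The nearest were Ptprcap, Rps15a-ps6, Cd2, Cd79b and S100a10, at distances of 0.12, 0.12, 0.14, 0.22 and 0.24 on the log2 scale. Ptprcap, which encodes a protein bound to CD45, was at 483 FPKM in the mM-CSF, 276 in the sM-CSF and 147 in the control library. Cd79b, a chain of the B cell receptor, was at 918, 634 and 322 FPKM in that order. All 5 were 650 to 1247 bases long, and likeness over 3 libraries is a weak measure.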

How the data were processed

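Each table holds 1 library, listing FPKM, gene length and expected count by NCBI gene ID. Per the file headers, the deposited expected counts are the authors' estimates of reads per gene, made before any normalization, and FPKM the authors' values scaled to gene length and library size. Per the submitters' processing notes, Bowtie2 (version 2.2.5) and RSEM were used, without a stated role; the genome build is not given in the sources used here. Per the labels, 1 ug of RNA was sequenced on BGISEQ-500.

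Genes absent from a table were taken as 0. Symbols came from RefSeq (GRCm38.p6), leaving 54 genes without one. Between libraries, differences of log2(FPKM + 1) were computed with Python 3.11.15 (numpy 2.4.6, scipy 1.17.1). Intervals are exact conditional (Clopper-Pearson) on counts rounded to whole numbers. The length trend was the median difference in 20 length bins of genes at 5 FPKM or more on average, interpolated and subtracted. The steps were tested on simulated counts that held counting error only, so variation between mice was not covered. List medians cover genes at 1 FPKM or more in either library. From each of 13 lists the 2 first genes and up to 4 with the largest mM-CSF difference could be named; 1 of these is not reported here. Of 130 list genes, 123 were in the tables. The members and lists were chosen with earlier results of these data known.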

Additional observations from a re-analysis of the deposited data

How the results depend on the processing

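No paired analysis was possible because each condition has 1 library. Of the 10 genes, 5 were higher against the control in the mM-CSF library under the pseudocount of 0.1, no minimum, median-of-ratios and upper-quartile settings, and 4 after TPM scaling or removal of the length trend. After that removal 0 in place of 1 were lower. In the sM-CSF comparison the 6 higher genes became 3 with TPM scaling, 3 with median-of-ratios scaling and 2 with the length trend removed. Against the sM-CSF library, 2 in place of 0 were higher in the mM-CSF library under both median-of-ratios and upper-quartile scaling.

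Over all genes, TPM scaling moved the median from -0.05 to -0.54 in the mM-CSF comparison, from 0.02 to -0.13 in the sM-CSF comparison and from -0.08 to -0.42 between mM-CSF and sM-CSF. Calls in the mM-CSF comparison were 878 higher and 1480 lower, against 281 and 3406 with TPM scaling (7.62% of calls higher in place of 37.2%) and 287 and 775 with the trend removed (27.0%). In the sM-CSF comparison they were 76 and 158 (32.5% higher), against 152 and 248 without a minimum, 98 and 364 with TPM scaling (21.2%) and 47 and 175 with the trend removed (21.2%). Between mM-CSF and sM-CSF they were 363 and 836 (30.3% higher), against 182 and 2174 with TPM scaling (7.72%), 584 and 613 with median-of-ratios scaling (48.8%), 541 and 653 with upper-quartile scaling (45.3%) and 183 and 455 with the trend removed. TPM scaling divides each library by its summed FPKM, which was 624289 in the mM-CSF, 500018 in the sM-CSF and 452400 in the control library. Why these sums differed, and the cause of the other shifts, was not tested.

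A floor of 3 counts was 0.350, 0.335 and 0.330 CPM in the mM-CSF, sM-CSF and control libraries, below every member, so depth did not limit their detection. Counting intervals leave out variation between mice, which 1 library per condition cannot show.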

Other observations

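Genes of other cells that use members of the set were present at differing levels. LAT also serves mast cells and platelets. Of 6 mast cell and basophil genes none was called in the mM-CSF or the sM-CSF comparison, and their summed level was 28.3 FPKM in the mM-CSF, 17.2 in the sM-CSF and 23.9 in the control library; Cpa3, a mast cell protease gene, was at 3.13, 3.40 and 3.27 FPKM. Of 6 megakaryocyte and platelet genes none was called in either comparison, and the sums were 21.7, 17.1 and 20.6 FPKM. Lef1 is also a gene of B cell progenitors. Among 6 genes of these, none was called in either comparison. Rag1 was at 0.15, 1.09 and 1.19 FPKM and Rag2 at 0.03, 0.26 and 0.32 FPKM in the same order. Igll1 (1.09, 0.92 and 0.52 FPKM) and Vpreb1 (1.55, 0.75 and 0 FPKM), named after their values were seen, went the other way. Estimated counts were few, at 1, 8 and 10 for Rag2 and 10, 5 and 0 for Vpreb1. Plasmacytoid dendritic cells of the mouse can bear CD4. Their 7 genes summed to 737 FPKM in the mM-CSF, 529 in the sM-CSF and 331 in the control library, most of it from Ly6d, which B cells also express, at 584, 428 and 236 FPKM. In the mM-CSF comparison Ly6d (1.30), Bst2 (1.04) and Cox6a2 (1.31) were higher and Runx2 (-1.72) was lower; none was called in the sM-CSF comparison. Bst2 was at 100.3 FPKM against 48.3 FPKM in the control and Cox6a2 at 36.6 FPKM against 14.2 FPKM. With the length trend removed none was higher in the mM-CSF comparison, and Klk1 (-1.45), named after its values were seen, was the 1 lower. Siglech, a lectin gene of these cells, was at 3.37 FPKM in the mM-CSF, 5.69 in the sM-CSF and 6.90 in the control library. What these cells added to the levels of Lat, Lef1 and Cd4 was not tested.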
